A study of Daucus carota subsp. sativus with 2 samples.

Results

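The plant MATE family, named DETOXIFICATION proteins in the deposited annotation, was described in root libraries of an orange and a red carrot. Its members were taken as the transcripts of the count table whose protein name contains the word DETOXIFICATION. This rule found 39 of 19838 transcripts and used no measured value. The protein name of 16121 transcripts (81.3%) was uncharacterized or missing, so family members among those could not be found. The study sequenced poly(A)-selected RNA from carrot roots, with 1 library from an orange hybrid (Hybrid Carrot, called modified in the series title) and 1 from a red variety (Delhi Carrot, called wild in that title). Both are labelled Daucus carota subsp. sativus and neither plant received a treatment. The sources used here do not say what the modification is, how old the plants were or how many roots made up a library. With 1 library per variety no difference has a replicate check, so each comparison below is one of 2 libraries.

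MATE transporters are membrane proteins that move small molecules out of the cytosol in exchange for protons or sodium ions. In Arabidopsis, TT12 loads flavonoid precursors into the vacuole and FRD3 releases citrate into the xylem, where it carries iron. Other plant members move alkaloids and plant hormones, and some root members release citrate that binds aluminium in the soil. The deposited annotation gives 38 of the 39 members the same general name and no individual substrate, so single members are called here by gene name and transcript identifier. The remaining one, LOC107820815 (rna30738), is named DETOXIFICATION 27-like. None (0) of the member gene names matched the RefSeq gene table, so no coordinates are given.

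The orange library held 7432754 counts and the red library 11310179. Counts were divided by a size factor per library, 0.937 for orange and 1.07 for red, and ratios below are of these scaled counts. Each ratio has a 95% exact interval from the pair of counts, which covers counting error only. The table gives no transcript lengths, so read numbers are compared between libraries and not as levels between genes. The libraries differed in tissue markers. CASP-like proteins, relatives of the proteins that build the Casparian strip of the root endodermis, and expansins, which loosen cell walls, took 0.160% of counts in orange and 0.0382% in red. Of these 56 transcripts, 11 had 0 counts in orange and 5 in red. Of all transcripts, 11.3% had 0 counts in orange and 8.18% in red. Members went both ways. Of 37 with enough reads, 17 (45.9%) passed a 2-fold difference toward orange, against 24.4% of all such transcripts. Toward red 10 (27.0%) passed it, against 30.6% of all. The CASP-like proteins alone were split 9 (36%) to orange and 9 (36%) to red, with 7 others. They had 6536 reads in orange and 3679 in red, of which 1 transcript gave 3542 in orange and 401 in red. Markers of green tissue took 0.314% of counts in orange and 4.28% in red, with 4 of 45 transcripts at 0 in orange and 0 in red. Of the 41 with enough reads, 3 (7.32%) passed a 2-fold difference toward orange and 33 (80.5%) toward red. The part of this difference in the transporter values was not tested, and fewer cells of a type cannot be told apart from less RNA per cell in such bulk samples.

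As a whole the family took a similar share of both libraries, but its reads were spread very differently over the members. Together the 39 transcripts had 5050 reads in orange and 6743 in red. This was 0.0679% of all orange counts (exact 95% interval 0.0661 to 0.0698) and 0.0596% of all red counts (0.0582 to 0.0611). In scaled counts the sum was 5389 in orange and 6319 in red, a ratio of 0.853 (0.822 to 0.885). The shares of total counts put orange higher, at a ratio of 1.14, while the scaled counts put red higher, so the direction of the family sum depends on the scaling. Without the most-read transcript the remaining 38 members had 1724 reads in orange and 5290 in red, and their scaled sum was 2.70-fold higher in red (2.55 to 2.85). With scaling to total counts that ratio of orange over red was 0.496, and it stayed below 1 under each scaling tried.

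That transcript is DCAR_019656 (rna35125), which had 3326 reads in orange and 1453 in red. It had the most reads of the family in both libraries and was 2.61-fold higher in orange (2.45 to 2.77). Its share of the family reads does not depend on library scaling. That share was 65.9% in orange (64.5 to 67.2) and 21.6% in red (20.6 to 22.6). In orange this 1 transcript was enough for 50% of the family reads, whereas 4 members were needed in red. To reach 90% took 8 members in orange and 12 in red. The effective number of members, the inverse of the summed squared shares, was 2.25 in orange and 9.29 in red. Without DCAR_019656 (rna35125) it was 10.7 in orange and 10.1 in red, so the remaining members were spread about as evenly in both libraries.

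**Figure D1:**
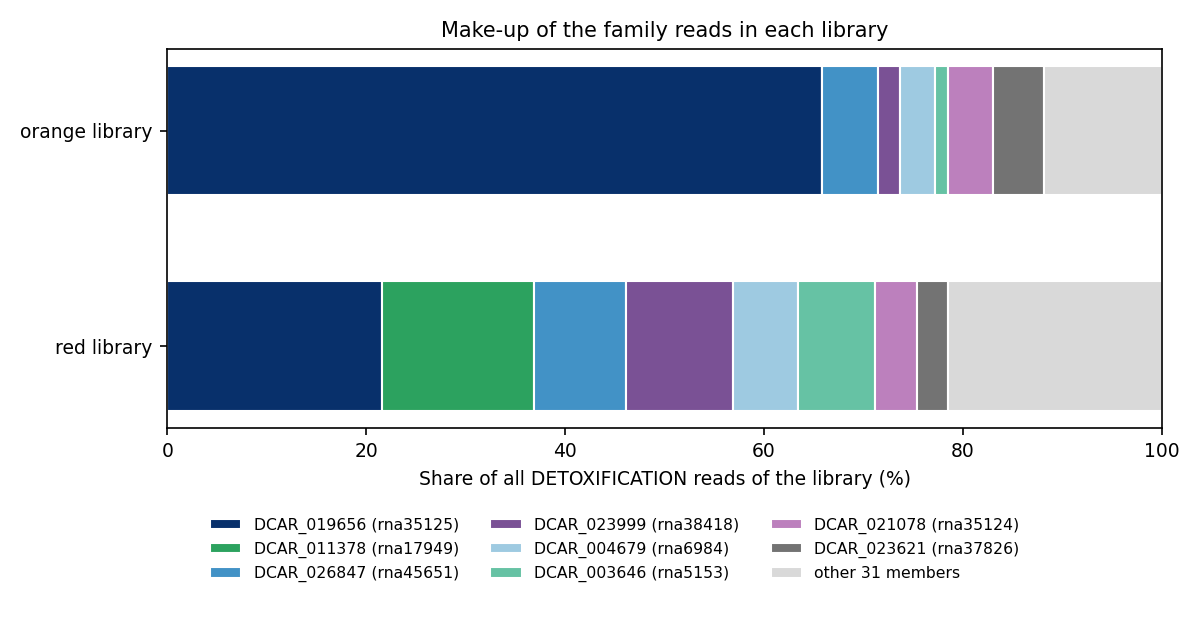
Share of the family reads of each library (%) taken by the 8 members of highest mean scaled count and by the other 31 members, with the orange library above the red one. DCAR_019656 fills 65.9% of the orange bar and 21.6% of the red bar, and DCAR_011378 appears in the red bar alone.

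The second most-read family member of the red library had no reads in orange. DCAR_011378 (rna17949) had 0 reads in orange and 1036 in red, where it made up 15.4% of the family reads (14.5 to 16.2). In orange the floor of 3 counts is 0.0594% of the family reads, and the exact interval of that share reached 0.0730%. Set against a floor of 3 counts in the orange library, it was 303-fold higher in red, while the exact interval of the pair of counts began lower, at 246-fold. Of all 14868 transcripts with a mean scaled count of at least 10, called measured here, 0.161% had a log2 fold as far or farther toward red. In the authors' deposited table it is listed as expressed in the red library alone, with a p-value of 4.87e-05 and an adjusted p-value of 0.0390. The other 38 members have an adjusted p-value of 1 in the authors' deposited table. The sources used here do not say how those p-values were made from 1 library per variety. Leaving out both DCAR_019656 (rna35125) and DCAR_011378, the other 37 members had 1724 reads in orange and 4254 in red, and their sum was 2.17-fold higher in red (2.05 to 2.29).

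More members were higher in red than in orange. Of the 39 members, 29 were measured. Of these, 8 (27.6%) were at least 2-fold higher in orange with an interval that excluded equality, against 24.4% of all measured transcripts, and 14 (48.3%) were at least 2-fold higher in red, against 30.6% of all. The orange share thus lay near the background and the red share above it, and the remaining 7 members (24.1%) differed by less than 2-fold. The median log2 fold of orange over red was -0.96 for the measured members and -0.06 for all measured transcripts. Both measured members at 0 counts lie below this median at their bound as well, so placing them there cannot move it. At 4-fold, 5 members were higher in orange and 10 in red, against 12.6% (orange) and 19.8% (red) of all measured transcripts.

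**Figure D2:**
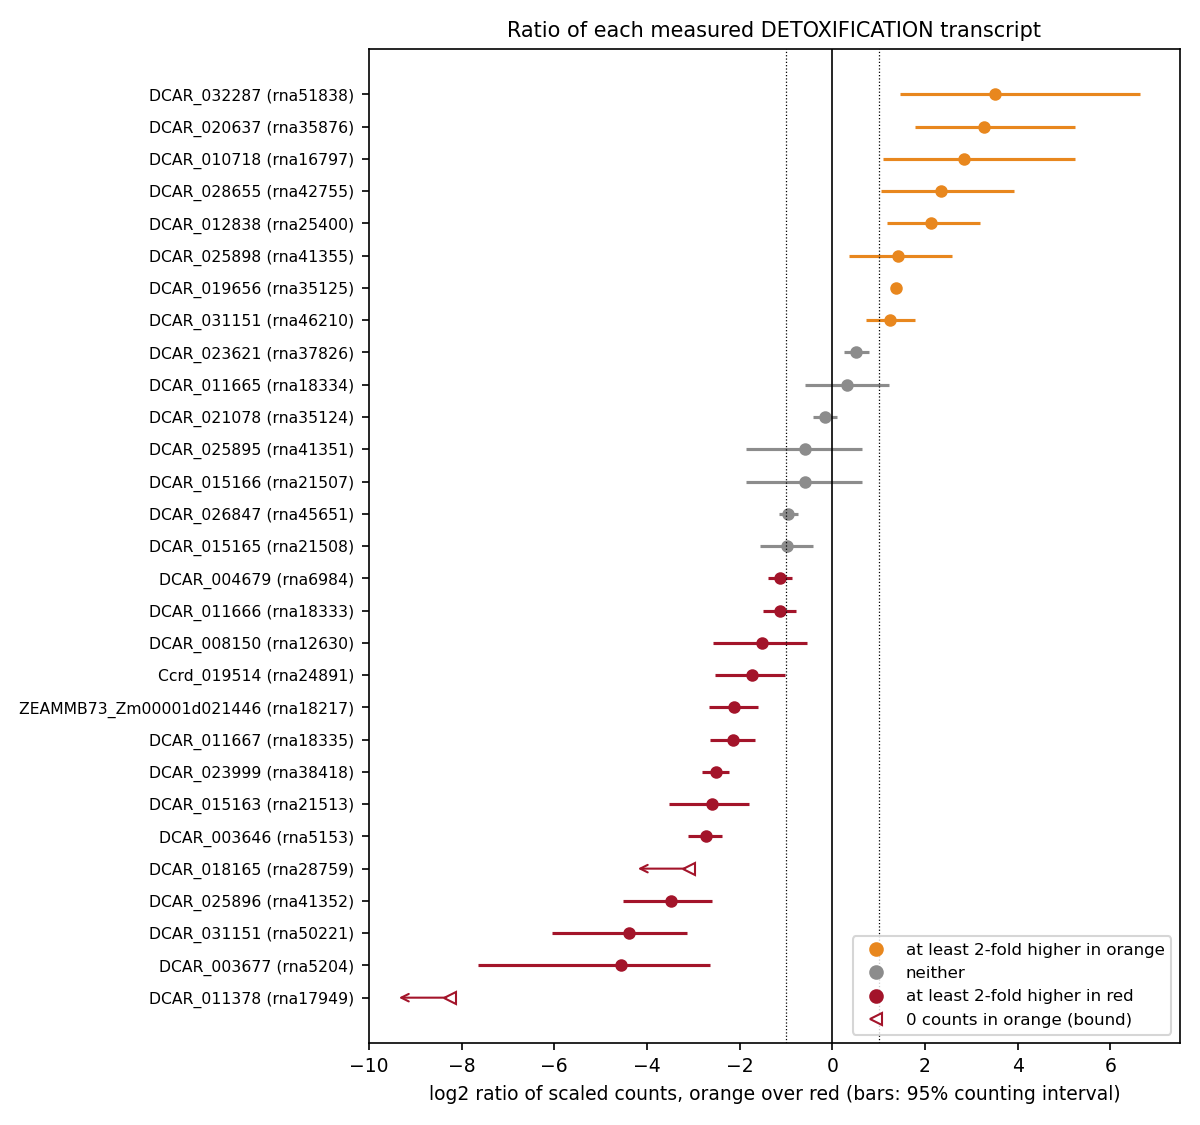
log2 ratio of scaled counts, orange over red, for each of the 29 measured members, with bars for the 95% counting interval and dotted lines at 2-fold. Open triangles with arrows are the 2 members with 0 counts in orange, drawn at their bound. The 8 members higher in orange reach 11.4-fold and the 12 members higher in red with reads in both libraries reach 23.7-fold.

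Counts were also made by the number of reads, with no test between the depth classes. Among the 11 members with a mean scaled count of at least 100, called well-read here, 1 was higher in orange and 7 were higher in red. Over all transcripts of that depth, 20.9% were higher in orange and 29.0% in red. Among the 18 measured members below that depth, 7 were higher in orange and 7 in red, against 31.0% (orange) and 33.5% (red) of all transcripts there. The well-read member higher in orange was DCAR_019656 (rna35125).

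Of the well-read members, DCAR_023999 (rna38418) had 112 reads in orange and 726 in red and was 5.69-fold higher in red (4.66 to 7.01). DCAR_003646 (rna5153) had 69 reads in orange and 523 in red, 6.66-fold higher in red (5.17 to 8.69). In orange DCAR_023999 gave 2.22% of the family reads and DCAR_003646 1.37%, against 10.8% and 7.76% in red. A smaller gap was found for DCAR_004679 (rna6984), with 178 reads in orange and 442 in red, 2.18-fold higher in red (1.83 to 2.61). Its ratio was under 2-fold with total-count (log2 -0.71) and upper-quartile scaling (log2 -0.92). DCAR_026847 (rna45651), with 282 reads in orange and 620 in red, was 1.93-fold higher in red (1.68 to 2.23) and so stayed just under 2-fold, although its interval excluded equality.

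At the lower end of this group, ZEAMMB73_Zm00001d021446 (rna18217) had 37 reads in orange and 183 in red, a 4.34-fold difference (3.04 to 6.36). DCAR_011667 (rna18335) had 44 reads in orange and 220 in red, and DCAR_011666 (rna18333) had 94 in orange and 235 in red. Both were higher in red, by 4.39-fold (3.17 to 6.22) and 2.20-fold (1.72 to 2.82). The ratio of DCAR_011666 was under 2-fold with total-count (log2 -0.71) and upper-quartile scaling (log2 -0.93). The other well-read members differed by less. DCAR_021078 (rna35124) had 224 reads in orange and 284 in red, a ratio of orange over red of 0.898 whose interval held equality (0.750 to 1.07). Its sign turned with total-count scaling (log2 0.26). DCAR_023621 (rna37826) had 263 reads in orange and 209 in red, 1.43-fold higher in orange (1.19 to 1.73).

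**Figure D3:**
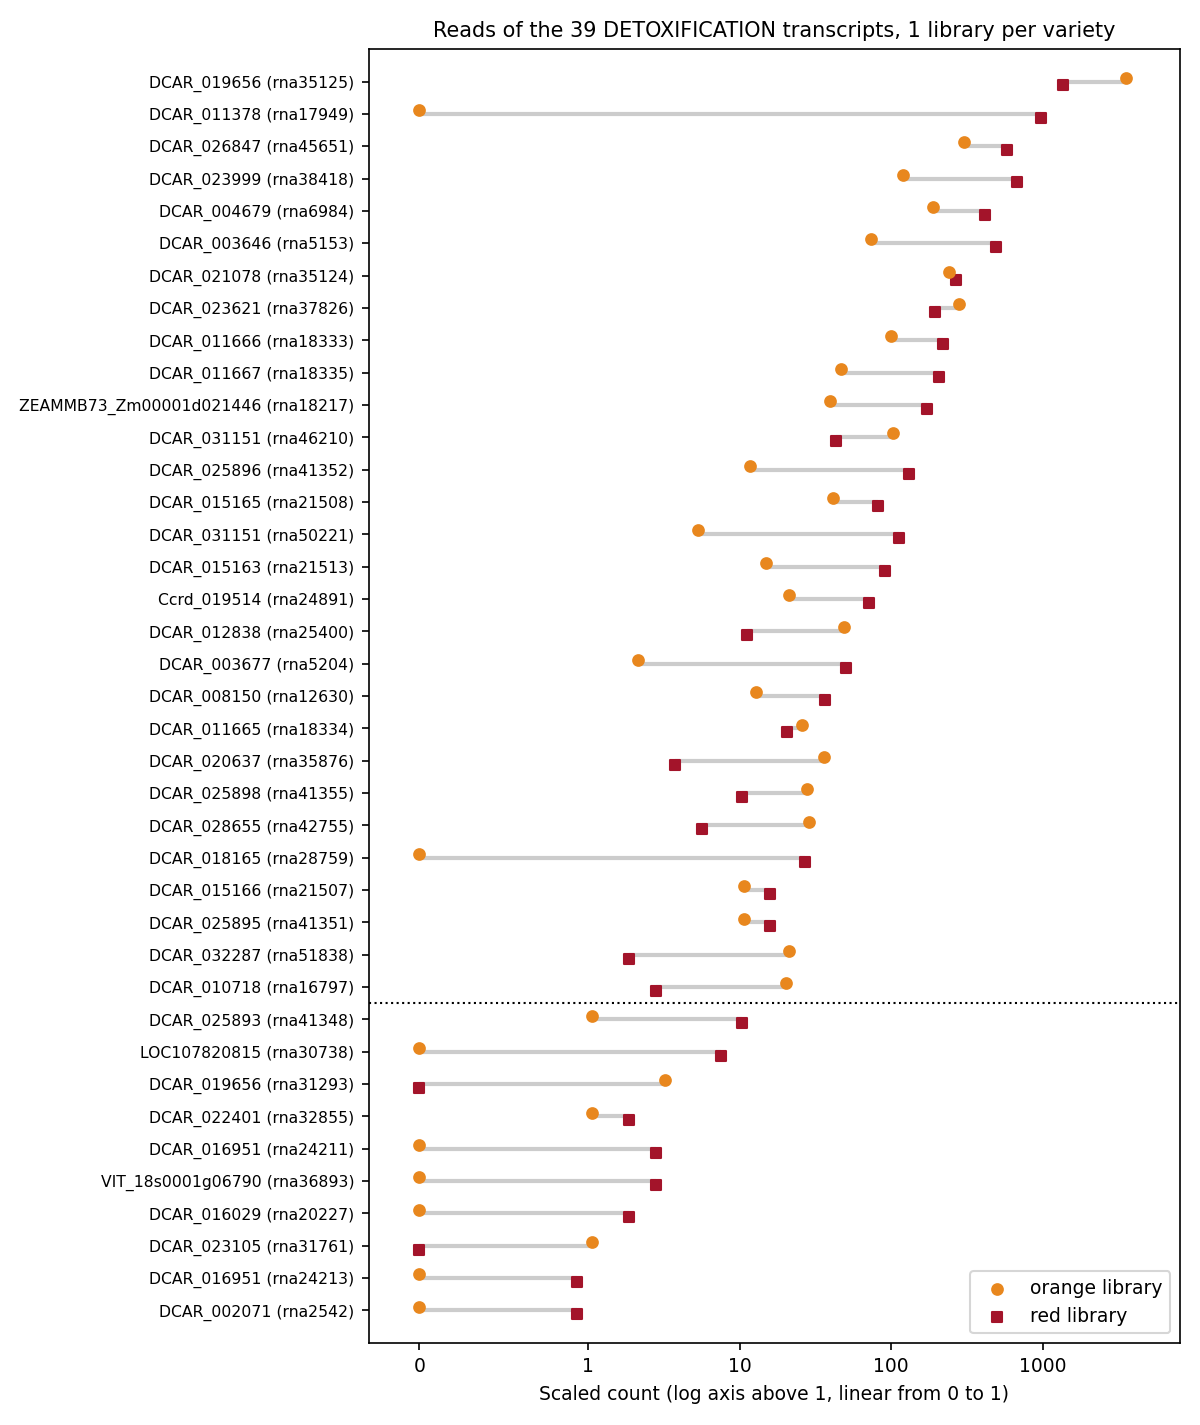
Scaled counts of the 39 members in the orange library (circles) and the red library (squares), in order of mean scaled count, on a log axis that is linear from 0 to 1. Members below the dotted line were not measured. DCAR_019656 (rna35125) leads in both libraries, and DCAR_011378 joins 0 in orange with a scaled count of 971 in red.

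Members with fewer reads went both ways, with wider intervals. The largest ratio toward red among members with reads in both libraries was that of DCAR_003677 (rna5204), with 2 reads in orange and 54 in red, 23.7-fold (6.25 to 201). DCAR_031151 (rna50221) had 5 reads in orange and 120 in red and was 21.1-fold higher in red (8.79 to 66.1). DCAR_025896 (rna41352) had 11 reads in orange and 139 in red and was 11.1-fold higher in red (6.01 to 22.8). These 3 transcripts had at most 11 reads in orange. A second transcript without reads there, DCAR_018165 (rna28759), had 0 in orange and 29 in red. Against the floor of 3 counts it was 8.49-fold higher in red, while its exact interval began lower, at 6.48-fold. The 12 members higher in red with reads in both libraries had a median of 5.04-fold.

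The remaining red-higher members each had between 10 and 100 reads in red. DCAR_015163 (rna21513) had 14 reads in orange and 97 in red, a 6.09-fold difference (3.46 to 11.5). Ccrd_019514 (rna24891) had 20 in orange and 76 in red (3.34-fold, 2.02 to 5.77). DCAR_008150 (rna12630) had 12 in orange and 39 in red (2.85-fold, 1.46 to 5.99). All 3 intervals lay wholly on the red side.

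Toward orange, the largest ratio was that of DCAR_032287 (rna51838), with 20 reads in orange and 2 in red, 11.4-fold higher in orange (2.77 to 100.5). DCAR_020637 (rna35876) had 34 reads in orange and 4 in red, 9.68-fold (3.45 to 37.5), and DCAR_010718 (rna16797) had 19 in orange and 3 in red, 7.21-fold (2.12 to 38.1). DCAR_028655 (rna42755) had 27 reads in orange and 6 in red (5.12-fold, 2.07 to 15.2). These 4 transcripts had single-digit counts in red, so their ratios rest on few reads. DCAR_012838 (rna25400), with 46 reads in orange and 12 in red, was 4.37-fold higher in orange (2.28 to 9.05). DCAR_025898 (rna41355) had 26 in orange and 11 in red (2.69-fold, 1.29 to 6.04). DCAR_031151 (rna46210) had 96 in orange and 46 in red (2.38-fold, 1.66 to 3.46). Apart from DCAR_019656 (rna35125), the members higher in orange had 19 to 96 reads there.

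A further 4 low-read members differed by less than 2-fold. DCAR_015165 (rna21508) had 39 reads in orange and 87 in red, 1.96-fold higher in red with an interval that excluded equality (1.33 to 2.94). DCAR_011665 (rna18334) had 24 in orange and 22 in red. DCAR_015166 (rna21507) and DCAR_025895 (rna41351) each had 10 in orange and 17 in red. The intervals of the last 3 held equality, so a difference was not detectable at this depth.

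Reads of 29 members were found in both libraries, of 2 members in orange alone and of 8 members in red alone. Having reads in orange alone, the 2 members were 5.13% of the family, against 8.18% of all transcripts in the table. The 8 with reads in red alone were 20.5% of the family, against 11.3% of all. Among the measured members, 2 had reads in red alone (3.09% of all measured transcripts did) and 0 in orange alone (1.72% of all). Most of these library-specific members had at most 3 reads. Above the floor of 3 counts were DCAR_011378 and DCAR_018165, described above, and LOC107820815 (rna30738), with 0 reads in orange and 8 in red. Against that floor LOC107820815 was 2.34-fold higher in red, but its exact interval began at 1.499-fold, below 2-fold. DCAR_025893 (rna41348) had 1 read in orange and 11 in red, 9.66-fold higher in red (1.40 to 416), and was not measured. The other 8 members that were not measured had at most 3 reads in either library, and no ratio is given for them. They were DCAR_022401, DCAR_016029, DCAR_023105, DCAR_002071, VIT_18s0001g06790, both transcripts of DCAR_016951 and a second transcript of DCAR_019656 (rna31293).

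**Figure D4:**
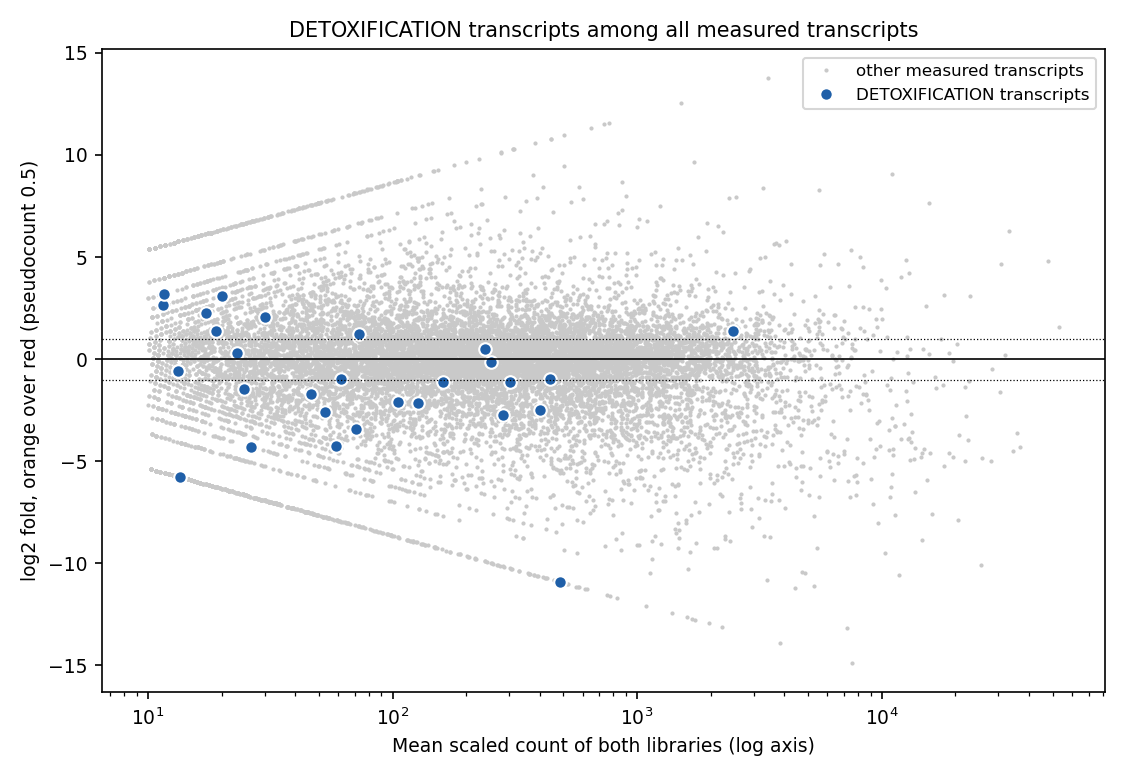
log2 fold of orange over red (pseudocount of 0.5) against the mean scaled count of both libraries on a log axis, for the 29 measured members (large points) and all other measured transcripts (small points), with dotted lines at 2-fold. The members lie within the spread of all transcripts, and DCAR_011378 lies on the lower edge that transcripts with 0 counts in orange form.

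Members with close transcript numbers did not always go the same way. Among transcripts with a DCAR locus tag, 88.9% of 13977 successive pairs with numbers at most 5 apart had tag numbers within 10 of each other. Successive members at most 5 numbers apart were joined by transcript number alone, which put 14 members into 5 runs. The pair rna35124 and rna35125 joined the most-read member, 2.61-fold higher in orange, with DCAR_021078, which did not differ by 2-fold. Their locus tags are not close in number. In the run of DCAR_011665, DCAR_011666 and DCAR_011667, DCAR_011666 and DCAR_011667 were higher in red, while DCAR_011665 had a ratio of orange over red of 1.24 (0.667 to 2.32). The run of rna41348 to rna41355 held DCAR_025896, 11.1-fold higher in red, and DCAR_025898, 2.69-fold higher in orange. In the run of rna21507 to rna21513, DCAR_015163 was higher in red, and DCAR_015165 and DCAR_015166 were below 2-fold. Whether members of a run are near-identical copies that exchanged reads in counting was not tested. Sums over runs are therefore given beside single members.

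Summed over a run, 3 of these runs were higher in red. The run of DCAR_011665 to DCAR_011667 had 162 reads in orange and 477 in red, a ratio of orange over red of 0.387 (0.322 to 0.463). The run of DCAR_015163 to DCAR_015166 had 63 in orange and 201 in red (0.357, 0.265 to 0.476). The run of DCAR_025893 to DCAR_025898 had 48 in orange and 178 in red (0.307, 0.218 to 0.424). The pair with DCAR_019656 (rna35125) went the other way, with 3550 reads in orange and 1737 in red (2.33, 2.20 to 2.47). The last run, the DCAR_016951 pair, had 0 reads in orange and 4 in red.

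Proton pumps supply the gradient that many MATE transporters use. Of 15 measured transcripts of plasma membrane and V-type ATPases, 3 passed the 2-fold rule toward orange and 5 toward red, with a median log2 fold of -0.16. The most-read plasma membrane ATPase, DCAR_020129, had 3427 reads in orange and 9974 in red and was 2.56-fold higher in red (2.46 to 2.66). V-type ATPase subunit a (DCAR_023032), part of the vacuolar pump, had 2703 in orange and 3434 in red and differed by 1.12-fold. The pump list therefore had 20.0% of its transcripts higher in orange and 33.3% in red, close to the shares of all transcripts. Its summed reads were 15750 in orange and 28231 in red, 1.574-fold higher in red (1.544 to 1.605).

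Among possible cargoes, flavonoid enzymes had few reads in orange. Of 6 measured transcripts 0 passed the 2-fold rule toward orange (24.4% of all did) and 5 toward red (30.6% of all), and the list had 137 reads in orange and 5098 in red. CHS2, a chalcone synthase that commits precursors to flavonoids, had 2 reads in orange and 2444 in red, and flavonol synthase FLS-2 had 0 in orange and 1325 in red. For organic acids, no aluminum-activated malate transporter was found by name. Of 7 measured malate dehydrogenases and citrate synthases, 2 (28.6%) were higher in orange and 2 (28.6%) in red, near the shares of all transcripts. The summed reads of the list were 10452 in orange and 35323 in red, 2.97-fold higher in red (2.90 to 3.03). However, 1 transcript, DCAR_021923, gave 26924 of those red reads. The median log2 fold of the measured transcripts was 0.30, on the orange side. Malate dehydrogenase DCAR_021923 had 761 reads in orange and 26924 in red, and DCAR_019590 had 4726 in orange and 2411 in red. Glutathione S-transferases, some of which carry flavonoids to the vacuole, had 2 measured transcripts. They were rna26668 (20 reads in orange and 74 in red) and TCM_020894 (2 in orange and 55 in red), both higher in red. These 2 are too few to set against the 30.6% of all transcripts higher in red.

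Other carrier families were counted in the same way. Of 23 measured transcripts in the list of other small-molecule carriers, 10 (43.5%) were higher in orange and 9 (39.1%) in red. The WAT1-related and SWEET subgroups were separated from this list after their values were seen. WAT1-related proteins, a family that includes an Arabidopsis vacuolar auxin exporter, had 7 of 12 measured transcripts (58.3%) higher in orange, against 24.4% of all, and 3 in red, against 30.6% of all, with 5004 reads in orange and 1244 in red. Their leading members were DCAR_015159, with 1883 reads in orange and 18 in red, and DCAR_022449, with 1237 in orange and 84 in red. SWEET transporters, which let sugars pass membranes, had 3 of 9 (33.3%) higher in orange and 5 (55.6%) in red, against the same shares of all transcripts. DCAR_003955 of that family had 122 reads in orange and 735 in red, and DCAR_019617 had 108 in orange and 456 in red. Only 3 ABC transporters, pumps driven by ATP, were measured, of which 1 was higher in orange and 0 in red, too few to set against the shares of all transcripts. AB35G had 2955 reads in orange and 6172 in red, and PDR1 had 1990 in orange and 3006 in red. No test of a difference between these families and the MATE family was made.

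**Figure D5:**
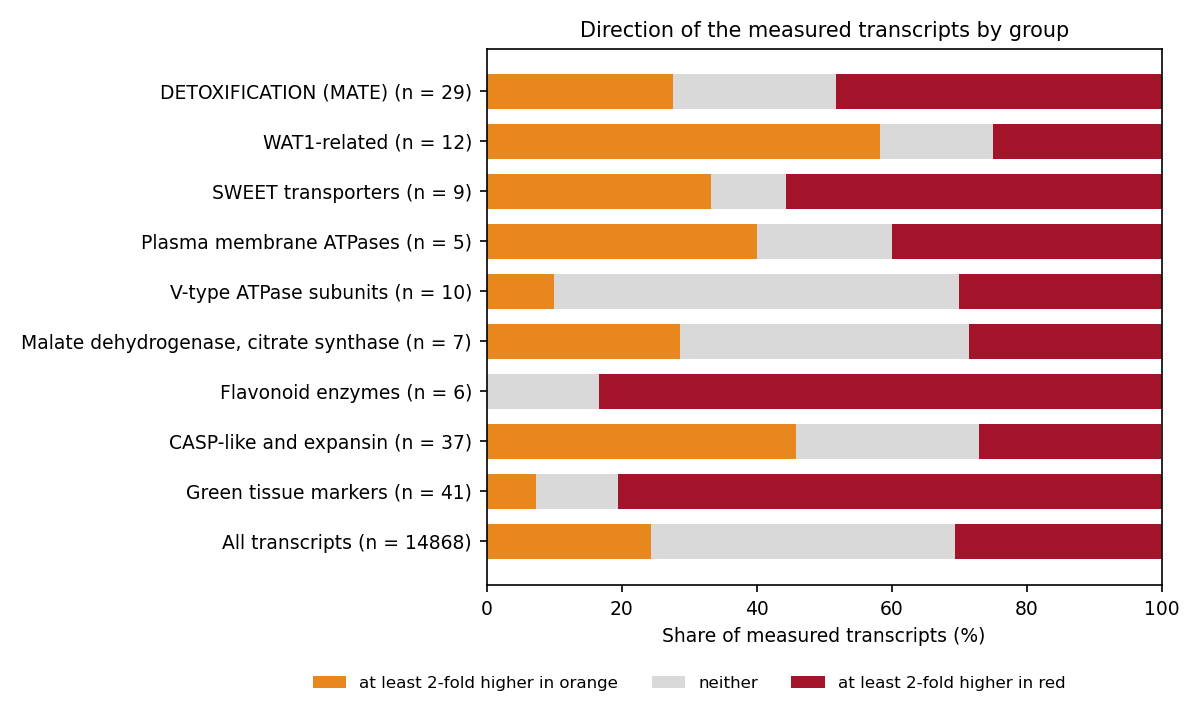
Share of measured transcripts (%) at least 2-fold higher in orange, neither, and at least 2-fold higher in red. Neither means a ratio under 2-fold or an interval that held equality. Bars are for the MATE family, related groups, tissue markers and all transcripts, with the number of measured transcripts beside each name. The MATE bar has 27.6% in orange and 48.3% in red, against 24.4% in orange and 30.6% in red for all transcripts. The WAT1-related, SWEET and ATPase groups were separated after their values were seen.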

How the data were processed

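Poly(A)-selected root RNA was sequenced per the labels' protocols, and groups were taken from the sample titles. Per the submitters' processing notes, tools were HISAT, HTSeq, DESeq, cutadapt and FastQC; no version, setting, genome build or annotation is stated in these sources. Read counts per transcript were deposited by the authors. They also deposited normalised counts, a signal found to equal the count times 1 constant per library (1.07 for orange, 0.937 for red). The authors' deposited tables hold a fold, the ratio of orange over red, its log2, and p-values.

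Scaled counts are counts over a median-of-ratios size factor. A measured transcript has a mean scaled count of at least 10. The log2 fold uses a pseudocount of 0.5, ratios none. Intervals are 95% Clopper-Pearson, and floors are 3 counts; both cover counting error only. Reads without molecular identifiers are not independent molecules. No p-value was made. Python 3.11.15, scipy 1.17.1 and edgeR 4.0.16 (TMM factors) were used. The calling was also run on simulated counts that held counting error only, which cannot show how calls fare with variation between plants or libraries.

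The members and lists were chosen with earlier results of these data known, and WAT1, SWEET and ATPase subgroups were separated after their values were seen. Every member with at least 10 reads in either library was named. From each related list, before subgroups were separated, the 2 transcripts of highest mean were named. Single tissue markers were not named. Alternatives were other scalings, filters, a pseudocount of 1, sums per gene name and a 4-fold rule.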

Additional observations from a re-analysis of the deposited data

How the results depend on the processing

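No paired analysis was possible because each variety had 1 library, and none could be left out. With total-count scaling, which moves a log2 ratio without a pseudocount by 0.42 toward orange, the ratio of family sums (orange over red) was 1.14 instead of 0.853, and with upper-quartile scaling it was 0.984. Upper-quartile scaling moves such a log2 ratio by 0.21 toward orange. Why the scalings differ was not tested. Without DCAR_019656 (rna35125) the ratio was 0.371 in the size factor scaling. Chosen after seeing the data, the same sum was 0.496 with total-count, 0.371 with TMM and 0.428 with upper-quartile scaling, and it was 0.461 without DCAR_011378 as well. The median log2 fold of the members was -0.55 with total-count scaling, where that of all transcripts was 0.37, a gap of -0.92 against -0.90 in the size factor scaling. With a minimum mean of 50 the median of the members was -1.62, where that of all transcripts was -0.07. Of 16 members there, 2 (12.5%) were higher in orange and 10 (62.5%) in red. The shares of all transcripts at that minimum were 22.1% in orange and 29.3% in red. The 4-fold rule, stricter by construction, left 5 members higher in orange, and 1867 (orange) and 2950 (red) of all transcripts. All 8 members higher in orange kept their call under the other 3 scalings, while 12 of 14 higher in red kept theirs with total-count and upper-quartile scaling; DCAR_004679 and DCAR_011666 (rna18333) went under 2-fold. With total-count scaling 33.8% of all transcripts passed the 2-fold rule toward orange and 24.7% toward red. DCAR_021078 alone among measured members changed sign, with total-count (log2 0.26) and upper-quartile (log2 0.05) scaling. Depth limits the 8 members with at most 3 reads.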

Other observations

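The deposited table gives 1 gene name to transcripts that went opposite ways. DCAR_031151 names rna46210, with 96 reads in orange and 46 in red (2.38-fold higher in orange, 1.66 to 3.46), and rna50221, with 5 reads in orange and 120 in red (21.1-fold higher in red, 8.79 to 66.1). DCAR_019656 names both the most-read member, rna35125, and rna31293, with 3 reads in orange and 0 in red. The number of rna35125 follows that of rna35124, which carries the name DCAR_021078, so gene names do not always follow the order of transcript numbers. These transcripts were picked with their values in view.

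The locus tag of the most-read WAT1-related transcript, DCAR_015159, is close in number to the MATE run of DCAR_015163 to DCAR_015166. The WAT1-related transcript was 119-fold higher in orange (75.2 to 201), while DCAR_015163 was 6.09-fold higher in red (3.46 to 11.5). This neighbour was also noticed after its values were seen.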
